A study of Mus musculus with 12 samples.

Results

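The dystrophin glycoprotein complex was followed through 7 of its genes, Dmd, Utrn, Dag1, Sgca, Sgcb, Sgcd and Dtna, chosen by name from the 20775 genes of each expression table. Earlier results of these data were known when they were chosen. RNA of mouse hearts was sequenced in 12 samples, 3 in each of 4 groups. Hearts at embryonic day E10.5 came from Med30 f/f embryos with Tnnt-Cre (cKO), in which Cre acts in developing cardiomyocytes, and from Cre-negative littermates (Ctrl), which the labels call wild type. Adult cardiomyocytes of C57BL/6 mice, 3 months old by the labels, were isolated by collagenase digestion 4 weeks after tamoxifen. They came from Med30 f/f mice with the inducible αMHC-MerCreMer transgene (icKO), and from Med30 f/f mice without Cre (Ctrl) that were given tamoxifen as well. The labels call these adult Ctrl wild type too. The floxed allele, made through a single clone of embryonic stem cells, has loxP sites around exon 1 of Med30, which encodes a subunit of the Mediator complex. Since no Ctrl mouse carried Cre, an effect of Cre and the loss of Med30 cannot be told apart in these samples. The paper reports neither deaths nor impaired heart function after tamoxifen in αMHC-MerCreMer mice that lacked a floxed allele. No sample came from such mice.

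The complex is a bridge across the membrane of the muscle cell. Dystrophin holds cortical actin on the inside and binds β-dystroglycan in the membrane, whose partner α-dystroglycan holds laminin outside through its sugar chains. The sarcoglycans and sarcospan form a side complex that steadies dystroglycan, and dystrobrevin and the syntrophins carry signalling proteins on the inner side. In heart and skeletal muscle its loss leaves the membrane fragile during contraction, and mutations in several of its genes cause muscular dystrophy with cardiomyopathy.

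The unit was RPKM, the reads of a gene per kilobase of its length after scaling for library size. The spacing of low values put the reads behind it at 11.97 M to 19.98 M per sample. A gene is said below to have risen or fallen when limma gave an adjusted p under 0.05 on log2(RPKM + 0.1), a scale that understates the changes of low genes, across the genes whose RPKM averaged more than 1 (10885 at E10.5 and 9517 at 4 weeks). All 7 genes of the complex passed this filter at both stages. Over all tested genes, the median log2 fold change was -0.13 at E10.5 and 0.57 at 4 weeks, so the typical adult gene had a higher RPKM in icKO. With the samples rescaled by the median of their gene ratios, named median-ratio scaling below, these medians were -0.01 and 0.01. The 20 most abundant genes held 24.8% to 25.4% of all RPKM in adult Ctrl and 11.5% to 13.1% in icKO. Adult log2 fold changes of the complex are therefore given on both scales. Nothing in the labels says that the 3 samples of a group came from separate litters or mice, and the p values measure only the spread between them. In these bulk samples, fewer cells of a type and less RNA per cell cannot be told apart.

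Med30 itself checked the labels. Its RPKM was 10.6, 13.3 and 11.3 in E10.5 Ctrl and 1.38, 2.02 and 1.004 in cKO, and 7.66, 7.45 and 7.66 in adult Ctrl and 3.81, 3.16 and 1.83 in icKO. All knockout samples lay below all Ctrl samples of their stage, with log2 fold changes of -2.96 ± 0.22 (SE, adjusted p = 0.000367) and -1.40 ± 0.23 (adjusted p = 0.000403). Reads from exons after the deleted one could still be counted. Among the E10.5 samples, Ctrl replicate 2 stood apart: its summed RPKM of 4 Y-linked genes was 0.076, against 30.4 to 39.2 in the other 5 samples, and the embryonic rises of genes of the complex and of its partners are given without it as well.

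At E10.5, 1 of the 7 genes rose and 0 fell by limma (2 and 0 at an unadjusted p under 0.05). Dmd, the gene of dystrophin, rose, and Utrn, the gene of its autosomal relative utrophin, was the next highest by fold change. Over all genes tested at this stage, 0.864% rose and 3.45% fell, and 0.239% rose with a log2 fold change above 1, which 0 of the 7 reached. The groups did not overlap, with cKO higher, for Dmd, Utrn and Dag1, where 6.50% of all genes had such a pattern, and with cKO lower for Sgcb, where 22.6% had. With median-ratio scaling 2 of the 7 rose (Dmd and Utrn) and 0 fell, beside 2.49% and 2.56% of all genes. The median log2 fold change of the 7 was 0.10, against -0.13 over all genes tested.

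Dmd lies on chromosome X of GRCm38 (82948870 to 85206141, plus strand), spans 2257.3 kb and has 3 RefSeq-linked transcripts, the longest of 14910 bases. A single RPKM cannot separate its full-length and short forms. RefSeq lists 2 starts, and the 250 bases before each are shown here from GRCm38.p6 because Dmd is the gene of the complex that rose at both stages. The first start opens the long form at the 5′ end of the gene (chrX:82948620-82948869), and the second lies in an intron near the 3′ end and opens a short form (chrX:85048045-85048294). The last sequence, before the start of Sgca on the minus strand (chr11:94976328-94976577), is set beside them because Sgca rose at neither stage. The first window and the last lie outside annotated genes and exons. Capitals mark every match, on either strand, to the E-box forms CAGCTG and CACGTG, the GATA forms AGATAA and TGATAA, the TATA form TATAAA, the GC box GGGCGG, the M-CAT motif CATTCC, the CArG box bound by SRF, or the MEF2 motif.
Dmd, long form: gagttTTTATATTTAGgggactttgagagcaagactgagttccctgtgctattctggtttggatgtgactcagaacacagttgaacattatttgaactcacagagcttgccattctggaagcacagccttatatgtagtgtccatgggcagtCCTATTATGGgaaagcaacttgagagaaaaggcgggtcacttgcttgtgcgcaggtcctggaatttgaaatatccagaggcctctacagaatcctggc
Dmd, short form: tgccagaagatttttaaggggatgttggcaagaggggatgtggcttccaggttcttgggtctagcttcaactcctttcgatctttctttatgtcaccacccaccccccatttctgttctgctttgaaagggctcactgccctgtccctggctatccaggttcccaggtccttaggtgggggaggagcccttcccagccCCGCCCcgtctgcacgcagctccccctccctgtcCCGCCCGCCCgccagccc
Sgca: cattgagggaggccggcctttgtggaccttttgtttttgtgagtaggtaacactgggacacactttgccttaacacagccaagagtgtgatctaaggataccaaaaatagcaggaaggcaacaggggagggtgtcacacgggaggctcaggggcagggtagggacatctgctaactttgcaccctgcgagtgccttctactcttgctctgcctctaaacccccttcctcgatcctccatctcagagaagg

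The window of the long form held 1 CArG box, 98 to 89 bases before the start, and 1 MEF2 motif, 244 to 235 bases before it, which overlaps a TATAAA match. Of the 32817 listed windows of this length, 1.47% held a CArG box, 2.92% a MEF2 motif and 12.4% TATAAA. The window of the short form held 3 matches to GGGCGG, of which 2 overlap, a motif found in 32.7% of windows. Its GC content was 60.0%, compared to 45.2% in the window of the long form and a median of 52.4% over all windows. The Sgca window held 0 matches to the motifs searched. Windows were listed for 6 of the 7 genes. These matches describe letters and are not binding sites.

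In E10.5 hearts, Dmd had an RPKM of 6.997, 5.214 and 6.920 in Ctrl replicates 1, 2 and 3 and of 11.4, 11.7 and 10.1 in cKO. The lowest cKO sample lay above the highest Ctrl sample. The means were 6.38 ± 1.01 and 11.0 ± 0.875 (SD, n = 3), 1.73 times as high in cKO. The log2 fold change was 0.79 ± 0.14 (SE, 95% interval 0.47 to 1.11, adjusted p = 0.0250), and 99.1% of the genes tested had a lower one. Without Ctrl replicate 2, the lowest Dmd value, it was 0.66 (adjusted p = 0.0449). The adjusted p passed 0.05 when Ctrl replicate 1 (0.0543), Ctrl replicate 3 (0.0848), cKO replicate 1 (0.0750) or cKO replicate 2 (0.0832) was left out, with log2 fold changes of 0.75 to 0.87.

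In adult cardiomyocytes, Dmd had an RPKM of 32.2, 37.2 and 33.3 in Ctrl and of 67.7, 61.3 and 64.6 in icKO. The groups stood clear of each other, with means of 34.3 ± 2.62 and 64.5 ± 3.16 (SD, n = 3). The log2 fold change was 0.91 ± 0.08 (95% interval 0.72 to 1.103, adjusted p = 1.07e-05). That was 0.35 above the median gene, and 67.8% of genes had a lower fold change, against 99.1% at E10.5. With median-ratio scaling it was 0.35 (95% interval 0.16 to 0.53, adjusted p = 0.00462).

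Utrn (chromosome 10, 12382188 to 12869365, minus strand) encodes utrophin, which takes the place of dystrophin in fetal muscle and in many other tissues. At E10.5 its RPKM was 20.4, 17.0 and 18.4 in Ctrl and 23.4, 26.1 and 24.1 in cKO. All cKO samples were above all Ctrl samples, by a mean ratio of 1.32. The log2 fold change of 0.40 ± 0.11 (95% interval 0.15 to 0.65) missed the threshold as deposited (adjusted p = 0.0718) and passed it with median-ratio scaling (0.52, adjusted p = 0.0172). As deposited and without Ctrl replicate 2 it was 0.34 (adjusted p = 0.146). Of the genes tested, 95.3% had a lower fold change.

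In adult cardiomyocytes Utrn had an RPKM of 7.89, 8.22 and 8.80 in Ctrl and of 26.6, 25.1 and 23.6 in icKO. The icKO values were about 3 times those of Ctrl, with means of 8.30 ± 0.460 and 25.1 ± 1.47 (SD, n = 3) and a ratio of 3.02. The log2 fold change was 1.58 ± 0.09 (95% interval 1.38 to 1.78, adjusted p = 8.06e-07), and 1.02 with median-ratio scaling (95% interval 0.84 to 1.21, adjusted p = 8.97e-06). Utrn was the only one of the 7 genes to rise by a log2 fold change above 1 at 4 weeks, as 28.0% of all genes tested did as deposited, and 89.4% of genes had a lower fold change.

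Levels per kilobase placed both genes in opposite order at the 2 stages. In E10.5 Ctrl hearts the ratio of Utrn to Dmd was 2.89, 3.22 and 2.63, and in cKO it was 2.04, 2.22 and 2.39. In adult Ctrl it was 0.247, 0.223 and 0.266, and in icKO it was 0.393, 0.409 and 0.367. Each ratio was taken after 0.1 RPKM was added to both genes. At the levels of Utrn and Dmd, a ratio within a sample hardly depends on the scaling of that sample. The cKO ratios were all below and the icKO ratios all above those of their Ctrl, with log2 differences of -0.39 and 0.67. With 3 samples against 3, the exact two-sided permutation test gave p = 0.1 at either stage, the smallest it allows, and 0.5 and 0.167 after adjustment over the 5 ratios of each stage.

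**Figure D1:**
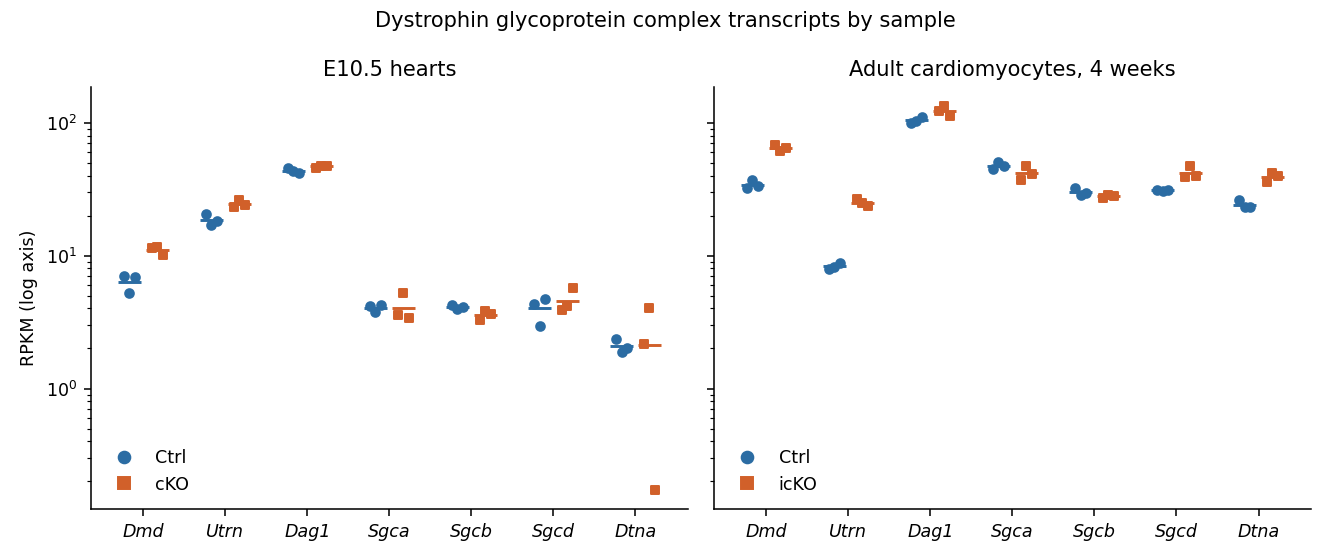
RPKM of the 7 genes on a log axis, in E10.5 hearts (left) and adult cardiomyocytes (right). Each point is a sample (circles Ctrl, squares cKO or icKO) and bars are group means; adult Utrn shows the widest gap between groups, 7.89 to 8.80 in Ctrl and 23.6 to 26.6 in icKO.

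Dag1 (chromosome 9, 108204634 to 108263958, minus strand), whose product is cut into α- and β-dystroglycan, was the most abundant of the 7 at both stages. At E10.5 its RPKM was 45.5, 43.4 and 42.1 in Ctrl and 45.9, 47.1 and 47.4 in cKO. The groups stood apart by little, and the log2 fold change of 0.10 (95% interval -0.13 to 0.33) did not pass the test (adjusted p = 0.580). In adult cardiomyocytes Dag1 had 98.7, 103.9 and 110.8 in Ctrl and 121.8, 132.5 and 111.4 in icKO, where the lowest icKO sample lay just above the highest Ctrl. It rose as deposited (log2 fold change 0.22, adjusted p = 0.0416) and fell with median-ratio scaling (-0.34, adjusted p = 0.00437). A direction for adult Dag1 therefore rests on the scaling, and it stood 0.35 below the median gene.

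Sgca, Sgcb and Sgcd encode α-, β- and δ-sarcoglycan, single-pass proteins of the side complex in striated muscle, and at E10.5 none of them passed the test. In the embryo, Sgca had an RPKM of 4.14, 3.74 and 4.26 in Ctrl and 3.55, 5.20 and 3.40 in cKO. Sgcb had 4.22, 3.97 and 4.113 in Ctrl and 3.28, 3.84 and 3.64 in cKO. Sgcd had 4.36, 2.97 and 4.70 in Ctrl and 3.88, 4.14 and 5.73 in cKO. The groups overlapped for Sgca and Sgcd, while every cKO value of Sgcb was below Ctrl. Their log2 fold changes were -0.02 (95% interval -0.43 to 0.38), -0.19 (-0.50 to 0.12) and 0.19 (-0.28 to 0.66).

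In adult cardiomyocytes Sgca had an RPKM of 45.1, 50.5 and 47.1 in Ctrl and 36.9, 47.3 and 41.2 in icKO. Sgcb had 32.5, 28.5 and 29.7 in Ctrl and 27.3, 28.6 and 28.0 in icKO. The groups overlapped for both. Their log2 fold changes of -0.19 (adjusted p = 0.110) and -0.11 (adjusted p = 0.238) missed the threshold as deposited, but lay 0.76 and 0.68 below the median gene. Both fell with median-ratio scaling, by 0.76 (adjusted p = 0.000201) and 0.67 (adjusted p = 9.62e-05) on the log2 scale.

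Sgcd went another way in the adult cells. It had an RPKM of 31.2, 30.6 and 31.3 in Ctrl and 39.2, 46.8 and 39.7 in icKO, with no overlap. It rose as deposited (log2 fold change 0.43, adjusted p = 0.00166), but its place was 0.14 below the median gene, and with median-ratio scaling the value was -0.13 (adjusted p = 0.181). Against Sgca in the same sample, Sgcd had a ratio of 0.691, 0.606 and 0.665 in Ctrl and 1.06, 0.990 and 0.964 in icKO. The icKO ratios were all above Ctrl, a log2 difference of 0.62 (exact permutation p = 0.1, adjusted p = 0.167). For Sgcb against Sgca the log2 difference was 0.08 (exact permutation p = 0.6). At E10.5 the differences were 0.22 for Sgcd (exact permutation p = 0.7) and -0.17 for Sgcb (p = 0.5 by the same exact test).

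Dtna (chromosome 18, 23415135 to 23659715, plus strand) encodes α-dystrobrevin, which binds dystrophin and the syntrophins. At E10.5 its RPKM was 2.36, 1.90 and 2.02 in Ctrl and 2.16, 4.06 and 0.172 in cKO. cKO replicate 3 lay far below all others and cKO replicate 2 far above, so the log2 fold change of -0.68 had an interval of -2.45 to 1.099, and it was 0.49 without cKO replicate 3. In adult cardiomyocytes Dtna had 26.2, 23.1 and 23.2 in Ctrl and 35.6, 41.7 and 39.4 in icKO. The adult groups did not overlap, and Dtna rose as deposited (log2 fold change 0.68, 95% interval 0.48 to 0.89, adjusted p = 0.000117). With median-ratio scaling it was at 0.12 (adjusted p = 0.281), close to the typical gene.

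Counted over the complex at 4 weeks, 5 of the 7 genes rose as deposited (Dmd, Utrn, Dag1, Sgcd and Dtna) and 0 fell, beside 60.6% and 18.1% of all genes (5 and 0 at an unadjusted p under 0.05). The groups did not overlap in the same 5 genes, as in 62.0% of all genes with icKO higher, and none had icKO lower, as in 18.9% of all genes. With median-ratio scaling 2 rose (Dmd and Utrn) and 3 fell (Dag1, Sgca and Sgcb), beside 33.6% and 34.6%. The median of the 7 was 0.43 as deposited, against 0.57 over all genes. The share that rose was near that of all genes, while the 7 genes were spread from Sgca, with 21.5% of all genes lower, to Utrn with 89.4%.

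**Figure D2:**
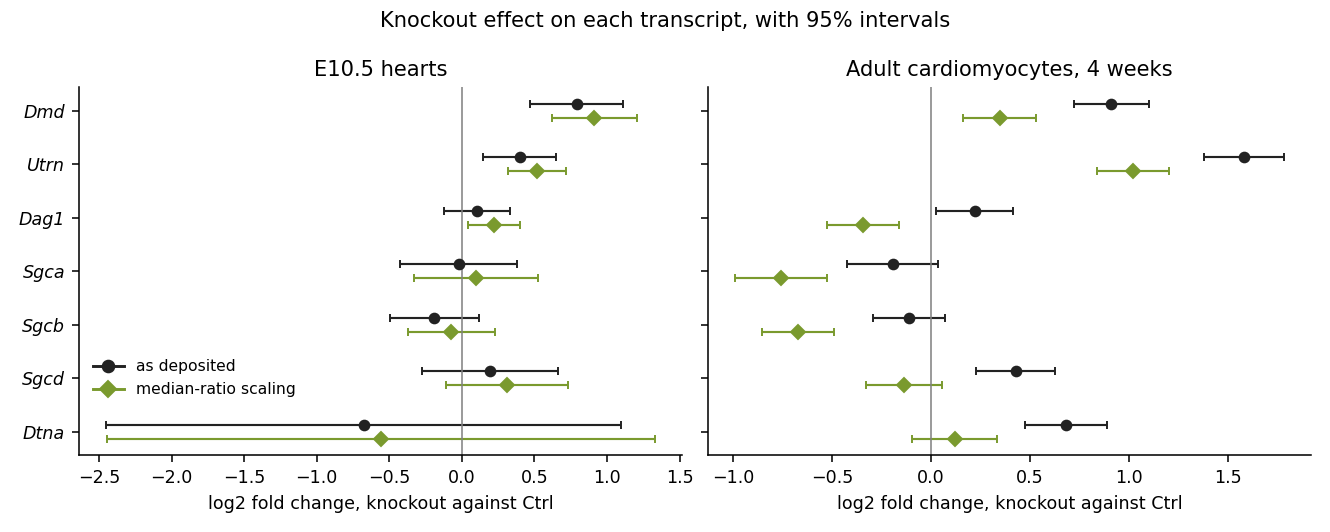
Log2 fold change of each gene of the complex, knockout against Ctrl, with 95% intervals from limma, for RPKM as deposited (circles) and with median-ratio scaling (diamonds); the axes of the panels differ. The intervals of Dmd and Utrn stay above 0 on both scales at both stages. Adult Dag1 changes side, from 0.22 to -0.34, as do adult Sgcd (0.43 to -0.13) and embryonic Sgca (-0.02 to 0.10).

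**Figure D3:**
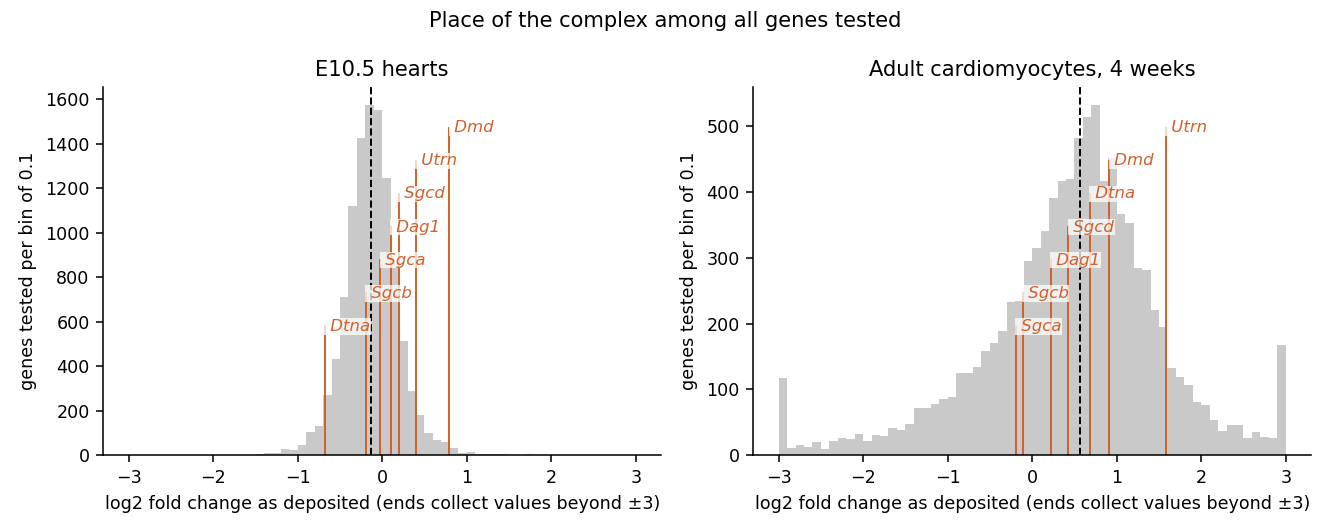
Histogram of deposited-scale log2 fold changes over the genes tested, with the 7 genes of the complex drawn as lines and the median gene dashed. Dmd stands at the right edge at E10.5 (99.1% of genes lower), and adult Sgca and Sgcb lie left of the median of 0.57.

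The knockout effect was compared between stages in a fit of all 12 samples, for the 8909 genes tested at both. For Utrn the adult effect was 1.18 above the embryonic one on the log2 scale (95% interval 0.89 to 1.48, adjusted p = 7.29e-06), and 0.48 with median-ratio scaling (adjusted p = 0.00308). As deposited, Utrn was the only 1 of the 7 with a difference, while 59.4% of all genes had a higher and 9.29% a lower effect at 4 weeks. For Dmd the difference was 0.12 (95% interval -0.24 to 0.48, adjusted p = 0.538) as deposited and -0.58 (-0.92 to -0.25, adjusted p = 0.00644) with median-ratio scaling. On that scale Dag1 (-0.59), Sgca (-0.87) and Sgcb (-0.62) also had a lower effect at 4 weeks, beside 26.5% higher and 26.4% lower over all genes. Stage here also means tissue, since whole hearts were set against isolated cells, and the 2 tables were normalized separately.

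The order of levels in Ctrl differed between the stages. In E10.5 hearts it ran Dag1 (43.7), Utrn (18.6), Dmd (6.38), Sgcb (4.10), Sgca (4.05), Sgcd (4.01) and Dtna (2.09), as mean RPKM. The 3 sarcoglycans overlapped in range. In adult Ctrl it ran Dag1 (104), Sgca (47.6), Dmd (34.3), Sgcd (31.0), Sgcb (30.2), Dtna (24.2) and Utrn (8.30). Dmd, Sgcd and Sgcb were neighbours whose sample ranges touched or nearly touched, from 28.5 to 37.2 over the 3 genes, while Utrn was far below the rest.

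Further genes, of the complex or linked to it, were taken from 9 lists of 72 genes in all, chosen with earlier results of these data known. At E10.5, 62 of them were tested, 4 rose and 0 fell (11 and 0 with median-ratio scaling), where 0.864% of all genes rose and 3.45% fell (2.49% and 2.56%). All 4 rises missed the threshold when any single sample was left out. At 4 weeks, 56 were tested, 30 rose and 14 fell as deposited, and 21 rose and 24 fell with median-ratio scaling. Of all adult genes 60.6% rose and 18.1% fell as deposited, and 33.6% and 34.6% did with median-ratio scaling, shares to be set beside each adult list count that follows. The median log2 fold change of those tested was 0.03 at E10.5, against -0.13 over all genes, and 0.50 at 4 weeks, against 0.57. Of the genes named from these lists with a rise or fall, only Cav3 lost it with median-ratio scaling. Adult Sntb1, Anxa1, Synm and Aqp4 averaged above 1 RPKM only in the group where they were high, and passed the filter through it. Their adult changes and p values are therefore given as a description.

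Of the further sarcoglycans, Sgce, the gene of the widely expressed ε-sarcoglycan, had an RPKM of 11.7 to 15.0 in the 6 E10.5 samples and did not pass the test (adjusted p = 0.495). Sspn, the gene of sarcospan, had an adult RPKM of 53.6 to 54.0 in Ctrl and 46.3 to 49.8 in icKO, with no overlap, and its log2 fold change of -0.16 missed the threshold as deposited (adjusted p = 0.0532) and passed it with median-ratio scaling (-0.73, adjusted p = 1.51e-05). Sgce had 0.871 to 1.48 in the 6 adult samples and passed the test on neither scale (-0.05, and -0.57 with adjusted p = 0.0650), and Sgcz, the gene of ζ-sarcoglycan, was listed at 0 in all of them. The ratio of Sgce to Sgca differed by 0.16 at E10.5 (exact permutation p = 0.4) and by 0.14 at 4 weeks (exact permutation p = 0.8) on the log2 scale.

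Relatives of dystrophin and dystrobrevin added little. Drp2 and Dytn were under the filter at both stages, and Dtnb, the gene of β-dystrobrevin, had 1.34 to 1.84 at E10.5, where it did not pass the test (adjusted p = 0.937), and 0.240 to 0.476 in the adult cells. The log2 ratio of Dtnb to Dtna differed by 0.64 in the embryonic hearts (exact permutation p = 1) and by -0.25 at 4 weeks (exact permutation p = 0.1). The adult groups were barely apart, with a ratio of 0.01459 in Ctrl replicate 3 and 0.014586 in icKO replicate 3. The 0.1 RPKM added to both genes is a large part of adult Dtnb, so that difference and its p lean on it. Of 5 syntrophins, 3 were tested at E10.5 and 0 passed (0 at an unadjusted p under 0.05). In the adult cells Sntb1, the gene of β1-syntrophin, had 0.632, 0.818 and 0.766 in Ctrl and 1.57, 2.55 and 2.596 in icKO, and rose on both scales (1.45 and 0.93). It passed the filter only through icKO.

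Of 4 genes whose products bind syntrophin or sit in caveolae, 3 were tested at either stage. None passed at E10.5 (1 lower at an unadjusted p under 0.05), and 2 rose and 1 fell in the adult cells (1 and 1 with median-ratio scaling). Mapk12, the gene of the kinase p38γ, had 3.33, 3.95 and 3.88 in Ctrl and 21.9, 28.2 and 28.3 in icKO (log2 fold change 2.77, adjusted p = 3.66e-07, and 2.21 with median-ratio scaling). Aqp4, the gene of a water channel anchored by syntrophin, had 1.68, 2.35 and 2.504 in Ctrl and 0.116, 0.094 and 0.082 in icKO, and fell by 3.51 on the log2 scale (adjusted p = 5.73e-06, and -3.91 with median-ratio scaling). It passed the filter only through Ctrl. Cav3, the gene of muscle caveolin, rose as deposited (0.83) but not with median-ratio scaling (0.27, adjusted p = 0.0773). Nos1, the gene of neuronal nitric oxide synthase, had 0 to 0.053 in all 12 samples.

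Genes that build the sugar chains of α-dystroglycan were split. Of 18 listed, 17 were tested at either stage. At E10.5, 0 rose and 0 fell (0 and 3 at an unadjusted p under 0.05). In the adult cells 7 rose and 5 fell, and with median-ratio scaling 4 rose and 9 fell. Dpm2, of the dolichol-phosphate mannose synthase, had 4.32, 4.30 and 3.43 in Ctrl and 13.4, 15.4 and 12.5 in icKO (log2 fold change 1.75, adjusted p = 2.72e-06, and 1.20 with median-ratio scaling). Pomt1, which adds the first mannose, had 4.00, 3.63 and 4.18 in Ctrl and 2.14, 1.97 and 2.46 in icKO (-0.82, adjusted p = 0.000401, and -1.37 with that scaling). Tmem5, a xylosyltransferase of the same chain, had 10.8, 8.59 and 8.95 in Ctrl and 5.80, 5.68 and 5.03 in icKO (-0.76, adjusted p = 0.000292, and -1.32 with it).

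Of 11 ligands of dystroglycan, 10 were tested at E10.5 and 0 passed as deposited (3 higher at an unadjusted p under 0.05), 3 rising with median-ratio scaling. In the adult cells 8 were tested, 4 rose and 1 fell, and with median-ratio scaling 2 rose and 4 fell. Lamc1, the gene of laminin γ1, had 8.12, 9.33 and 8.64 in Ctrl and 34.3, 29.8 and 29.3 in icKO (log2 fold change 1.83, adjusted p = 6.41e-07, and 1.26 with median-ratio scaling). Lama4 rose by 1.13 on the log2 scale (adjusted p = 3.97e-05), and by 0.58 with that scaling (adjusted p = 0.00386). Lama2, the gene of the laminin chain of mature muscle, had 17.9, 17.0 and 17.6 in Ctrl and 14.6, 15.1 and 13.3 in icKO, and fell by 0.29 on the log2 scale (adjusted p = 0.0116, and -0.85 with median-ratio scaling, adjusted p = 1.67e-05).

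Of 10 cytoskeletal partners tested at E10.5, 3 rose, 0 fell and the others did not pass (4 and 0 with median-ratio scaling). In the adult cells 8 were tested, 4 rose and 3 fell, and 3 rose and 4 fell with median-ratio scaling. Synm, the gene of the intermediate filament protein synemin, which binds dystrophin and utrophin, had 3.20, 3.40 and 2.41 in E10.5 Ctrl and 4.66, 5.03 and 5.38 in cKO (log2 fold change 0.73, adjusted p = 0.0414, and 0.0518 without Ctrl replicate 2). In the adult cells it had 0.357, 0.277 and 0.506 in Ctrl and 20.5, 14.9 and 16.6 in icKO (5.20, adjusted p = 1.98e-07, and 4.69 with median-ratio scaling). Adult Synm passed the filter only through icKO. Plec, the gene of the linker plectin, rose at E10.5 from a mean of 8.85 to 13.2 (0.59, adjusted p = 0.0457, and 0.0904 without Ctrl replicate 2). Flnc was the third riser there (0.55, adjusted p = 0.0414, and 0.0805 without that sample). Flnc, the gene of filamin C, which binds sarcoglycans, had 64.4, 68.6 and 77.7 in adult Ctrl and 342, 326 and 267 in icKO (2.14, adjusted p = 5.98e-07, and 1.58 with median-ratio scaling). Cmya5, the gene of myospryn, went from a mean of 150 to 38.0 and fell by 1.98 on the log2 scale (adjusted p = 7.14e-07, and -2.55 with that scaling). Ank2, the gene of ankyrin-B, went from 31.2 to 11.97 and had a log2 fold change of -1.38 (adjusted p = 7.34e-06, and -1.95 with that scaling).

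Of 8 genes of membrane repair, 0 passed at E10.5 as deposited (3 higher at an unadjusted p under 0.05) and 1 rose with median-ratio scaling. In the adult cells 6 were tested, 5 rose and 1 fell as deposited, and 4 rose and 1 fell with median-ratio scaling. Anxa2 had 1.39, 2.54 and 2.98 in Ctrl and 40.1, 46.5 and 31.7 in icKO (log2 fold change 4.09, adjusted p = 1.35e-06, and 3.54 with median-ratio scaling), and Anxa1 rose by 2.21 (adjusted p = 2.70e-05, and 1.71 with that scaling). Anxa1 passed the filter only through icKO. Trim72, the gene of the repair protein MG53, had 90.1, 51.6 and 80.4 in Ctrl and 44.9, 51.3 and 59.6 in icKO. Those groups overlapped, and Trim72 fell by 0.48 on the log2 scale as deposited (adjusted p = 0.0469) and had -1.05 with median-ratio scaling (adjusted p = 0.00199). As deposited, the fall missed the threshold without Ctrl replicate 1 (0.144), Ctrl replicate 3 (0.118), icKO replicate 1 (0.158) or icKO replicate 2 (0.0937).

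Integrin, talin and vinculin form a parallel link from the matrix to actin. Of 9 genes of this link, 8 were tested at E10.5, where 1 rose and 0 fell: Vcl, the gene of vinculin, had 40.3, 36.7 and 34.3 in Ctrl and 49.4, 54.2 and 52.6 in cKO (log2 fold change 0.49, adjusted p = 0.0415, and 0.0745 without Ctrl replicate 2). With median-ratio scaling 3 rose. At 4 weeks 9 were tested, 6 rose and 2 fell as deposited, and 6 rose and 3 fell with median-ratio scaling. Tln1, the gene of talin-1, had 12.8, 14.3 and 13.6 in Ctrl and 79.1, 72.8 and 75.9 in icKO (2.48, adjusted p = 1.06e-07, and 1.91 with median-ratio scaling). Tln2, the form of mature striated muscle, had 11.8, 13.1 and 11.7 in Ctrl and 8.62, 8.03 and 9.31 in icKO, and fell by 0.49 on the log2 scale (adjusted p = 0.00134, and -1.05 with that scaling, adjusted p = 2.68e-05). Parva rose by 2.12 (adjusted p = 4.21e-07, and 1.56 with median-ratio scaling), and Lims1, whose product joins parvin in the complex of integrin-linked kinase, fell by 1.14 (adjusted p = 6.69e-05, and -1.71 with that scaling).

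**Figure D4:**
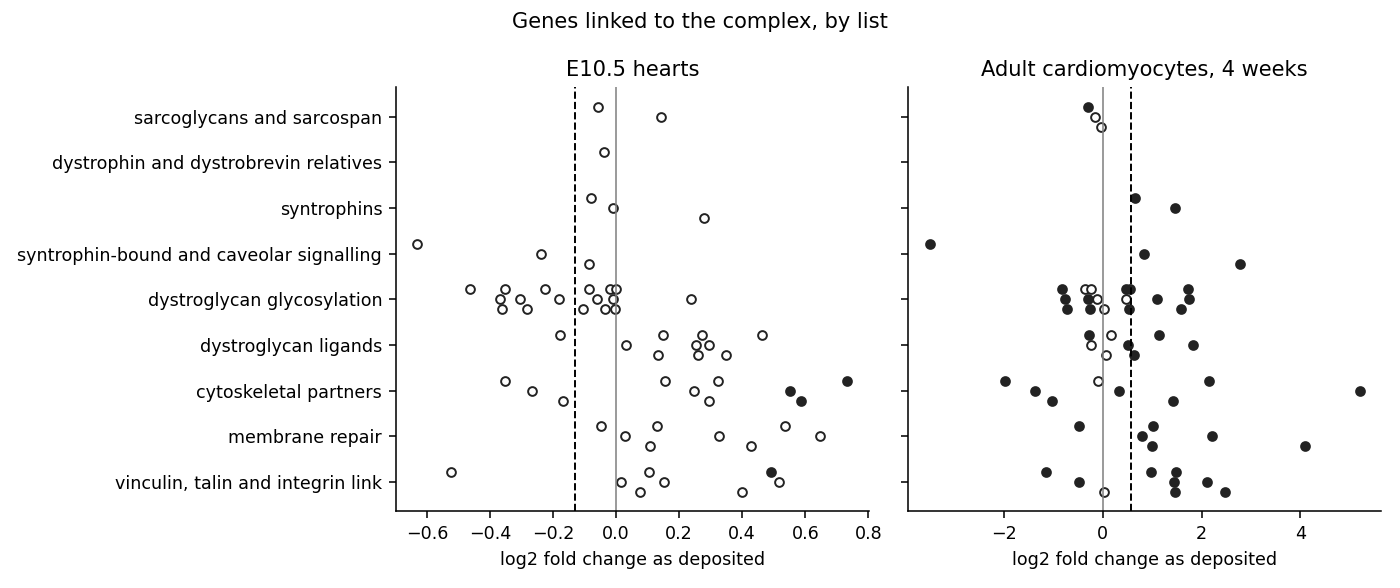
Log2 fold change, as deposited, of every tested gene of the 9 lists (a point each, filled where the adjusted p was under 0.05, the dashed line the median of all genes); the axes of the panels differ. At E10.5 the 4 filled points are Plec, Synm, Flnc and Vcl, and in the adult cells points spread from Aqp4 (-3.51) to Synm (5.20).

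Markers of other cells moved with the adult results. The summed RPKM of 5 fibroblast markers was 3.47 to 6.10 in adult Ctrl and 40.1 to 53.5 in icKO. Of them 3 were tested and all 3 rose (2 with median-ratio scaling), where Col1a1 and Postn passed the filter only through icKO. The defining markers Pdgfra and Tcf21 were under the filter. Pdgfra had 0.24 to 0.284 in Ctrl and 0.402 to 1.64 in icKO, and Tcf21 had 0 to 0.123 in Ctrl and 0.337 to 0.611 in icKO. For 5 endothelial markers the sum was 7.12 to 19.7 and 18.9 to 32.1, and for 5 mural and smooth muscle markers 5.82 to 15.05 and 19.0 to 36.5, with 3 of 5 and 2 of 3 tested genes rising as deposited, and 0 and 1 with median-ratio scaling. Pdgfrb of the mural list passed the filter only through icKO. For 5 macrophage markers it was 1.78 to 2.70 and 3.6 to 6.50, Ptprc being at 0.147 or below, and the 1 rise as deposited (Lyz2) was not kept with median-ratio scaling (adjusted p = 0.154). Epicardial and Schwann cell lists had sums of 0.954 to 3.31 and 0.238 to 0.488 over the 6 samples, with no gene tested, and the erythroid sums of 1.29 to 13.2 and 6.59 to 15.5 overlapped. Utrn is also expressed in vessel walls, and the part of such cells in its adult value was not tested. The labelled cell type was checked with 6 cardiomyocyte markers, all present, whose sum was 11553 to 12217 in Ctrl and 4444 to 5273 in icKO: 4 fell, among them Myh6, and Actn2 and Nkx2-5 rose as deposited, of which Nkx2-5 did not with median-ratio scaling (0.18, adjusted p = 0.174).

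At E10.5 the sums of the same lists overlapped between groups for cardiomyocyte (1394 to 2038 in Ctrl, 1314 to 1666 in cKO), fibroblast (40.1 to 85.1, 42.4 to 56.9), endothelial (94.2 to 137, 120 to 127), epicardial (44.8 to 52.1, 38.3 to 53.6), Schwann cell (3.26 to 5.12, 2.87 to 5.53) and erythroid genes (220 to 742.5, 342 to 2047). The mural sum was slightly higher in cKO (11.2 to 14.7, 15.6 to 16.2) and the macrophage sum lower (8.51 to 11.2, 4.87 to 6.76). That lower sum was mostly Lyz2, which fell on both scales, from a mean of 7.72 to 3.77. Csf1r (0.405 and 0.411) and Cd68 (1.67 and 1.57, limma adjusted p = 0.830) did not follow it, and Ptprc and Adgre1 were near 0. Tbx18 of the epicardial list fell as deposited, but not with median-ratio scaling (adjusted p = 0.0569) or without Ctrl replicate 2 (0.0712). Their part in the rise of Dmd was not tested.

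Genes whose pattern was most like that of Dmd were found by Pearson's r over the 12 samples, after the mean of each stage was taken out, among 8909 genes. They were Slc16a10 (r = 0.981), Ubl3 (0.980), Dnajb4 (0.973), Myo18b (0.972) and Arvcf (0.969). For Utrn they were Flnc (0.997), Ski (0.997), Fat1 (0.996), Fndc3b (0.996) and Epha2 (0.995). Between Dmd and Utrn r was 0.873, and the other 5 genes of the complex reached -0.708 (Sgcb) to 0.722 (Dag1) with Dmd. Such an r mostly restates the step from Ctrl to knockout, which the 12 samples share, and is given as a description.

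**Figure D5:**
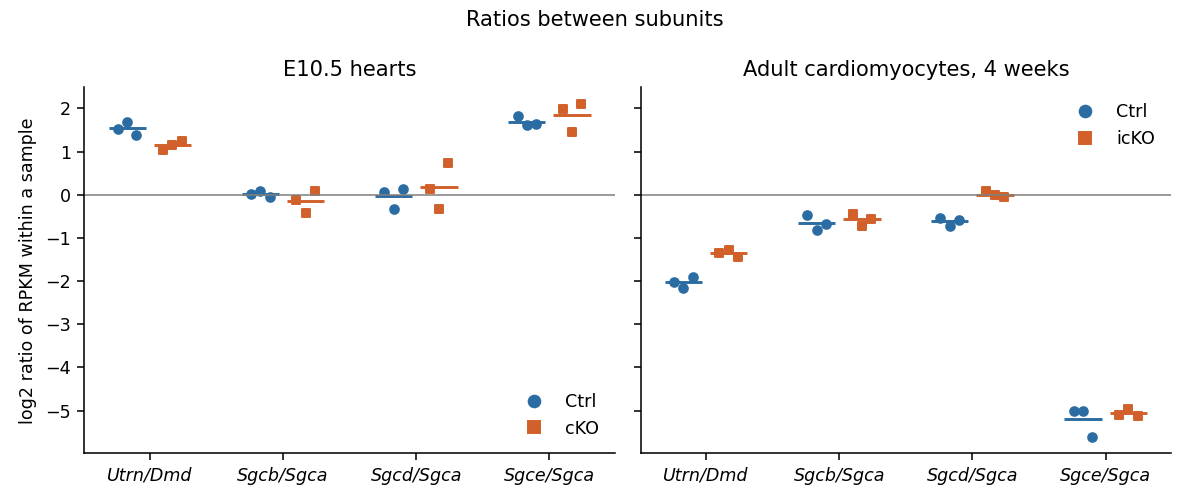
Log2 ratio of RPKM between pairs of subunits within each sample (points; bars are group means), at E10.5 (left) and in adult cardiomyocytes (right). Utrn over Dmd lies above 0 in the embryo and below 0 in the adult cells, and its groups do not overlap at either stage.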

How the data were processed

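The genes of the complex and the lists were chosen with earlier results of these data known. Per the labels, reads were mapped to mm10 (GRCm38); the submitters' processing notes name cutadapt 2.6, STAR 2.5.3a, HOMER 4.11.1 and DESeq2 1.12.4. RNA was depleted of ribosomal RNA, and the authors deposited RPKM per gene, scaled by library. The deposited tables also hold mean RPKM, fold changes and FDR of the authors' own comparison, which were not used.

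Each stage was fitted with limma 3.58.1 (R 4.3.3; lmFit, eBayes with trend) on log2(RPKM + 0.1), keeping genes whose RPKM averaged more than 1, with Benjamini-Hochberg adjustment over all genes tested. No count test was run on RPKM. Reads per sample were estimated from GENCODE lengths of genes with 1 RefSeq-linked transcript, as the depth at which most values of up to 12 reads were whole. Of these values, 62.9% to 68.4% lay within 0.1, against 20% by chance at a fixed depth. The depth was chosen to make this share largest, so 20% is not what such a choice would reach by chance. In the lowest sample, counting error alone is then 3.88% or less for the adult genes and for embryonic Dmd, Utrn and Dag1. It is 7.28% for embryonic Sgcb, 11.2% for Sgca, 11.5% for Sgcd and 26.0% for Dtna (14.8 reads in the lowest sample). The fits and the depth estimate were tested on simulated data. Strand use in counting was not given in the sources used here; the exons of Dtna share 90 bases with an antisense gene. Promoters are from RefSeq.

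Named genes were all 7, Med30, in each list up to 2 genes with the largest fold change per direction among those with an adjusted p under 0.05, and the 5 genes most like Dmd and Utrn. Some genes that this rule names are not reported here. Cell type markers and genes under the filter were named after their values were seen. Alternatives were pseudocounts of 1 and 0.01, other filters and scalings, no trend, sample weights, the replicate number as a block, and leaving out each sample.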

Additional observations from a re-analysis of the deposited data

Results flagged for a closer look

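Of the 7 genes, Utrn differed between the stages in its response to the knockout, by a test of the difference itself: the adult effect was 1.18 above the embryonic one on the log2 scale (limma, adjusted p = 7.29e-06). All 3 icKO samples were above all 3 adult Ctrl samples, and all 3 cKO samples above all 3 embryonic Ctrl samples. With median-ratio scaling the difference was 0.48 (adjusted p = 0.00308), and over all alternatives it ranged from 0.48 to 1.25 with an adjusted p of 0.00382 or below. As deposited, 59.4% of the 8909 genes tested at both stages had a higher effect at 4 weeks, and 73.9% had a lower difference than Utrn. With median-ratio scaling 26.5% had a higher effect, and Dmd, Dag1, Sgca and Sgcb differed as well, each with a lower effect at 4 weeks. Tissue and stage cannot be told apart here. Groups of 3 are too small for a test of single samples, so cKO replicate 3 of Dtna, at 0.172 RPKM, was not tested.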

How the results depend on the processing

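The rise of adult Utrn (log2 fold change 1.02 to 1.63) and of adult Dmd (0.35 to 0.97) kept its direction and its side of the threshold under all 17 alternatives, and the 1 gene that rose by a log2 fold change above 1 at 4 weeks was 1 under each. The number that rose at E10.5, 1 as reported, was 2 with median-ratio scaling, sample weights, quantile normalization and a scaling that leaves out the 20 most abundant genes, and 0 with eBayes without a trend (Dmd at adjusted p = 0.0579). At 4 weeks 5 rose as reported, 2 with median-ratio scaling, 2 with quantile normalization and 3 without the 20 most abundant genes, and 3, 2 and 2 fell. The number that differed between stages, 1 as reported, was 5, 5 and 3. Leaving out each sample gave 0 to 1 rising at E10.5, 4 to 5 rising and 0 to 1 falling (Sgca, without icKO replicate 2) at 4 weeks, and 1 to 2 differing between stages (Dtna joining at 2.16 without E10.5 cKO replicate 2). It gave -0.47 to -0.32 for the log2 ratio of Utrn to Dmd at E10.5 and 0.60 to 0.73 at 4 weeks. The cause of the moves with the scaling was not tested.

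Directions turned in these results. With median-ratio scaling, with quantile normalization and with the 20 most abundant genes left out of the scaling, in this order, embryonic Sgca was 0.10, 0.10 and 0.15, adult Dag1 was -0.34, -0.071 and -0.022, and the difference between stages was -0.58, -0.48 and -0.30 for Dmd, -0.59, -0.37 and -0.30 for Dag1, -0.62, -0.54 and -0.33 for Sgcb and -0.47, -0.38 and -0.18 for Sgcd. Adult Sgcd was -0.13 and -0.050 with the first and second of these. With sample weights embryonic Sgcd was -0.069 and embryonic Dtna 0.063. Leaving out single samples gave -0.21 to 0.088 for embryonic Sgca, -0.0034 to 0.32 for Sgcd, -1.48 to 0.49 for Dtna and -0.28 to 0.0195 for the difference in Sgca, and for log2 ratios -0.54 to 1.40 (Dtnb to Dtna) and -0.063 to 0.47 (Sgcd to Sgca) at E10.5 and -0.055 to 0.25 (Sgce to Sgca) and -0.0018 to 0.17 (Sgcb to Sgca) at 4 weeks. The rise of adult Dag1 also missed the threshold with no filter (adjusted p = 0.0602), without a trend (0.0857) and without each of 4 single samples (up to 0.135).

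Same-numbered samples did not deviate together in every pair (correlations of -0.07 to 0.15), and not every sample correlated best with its own number, so the numbers were not taken as pairs. With the replicate block, 1 gene rose at E10.5 and 4 at 4 weeks, where Dag1, at 0.22, was lost (adjusted p = 0.06995). Over all genes the block gave 77 rising and 304 falling at E10.5, against 94 and 376 without it.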
